A study of Mus musculus with 6 samples.

Results

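Inducible heat shock chaperones were examined in mouse tissues after an oral plant extract. The set held 4 genes, Hspa1b, Hsp90aa1, Bag3 and Dnajb1, of 16675 genes named on the array. They were chosen by the measured difference between extract and saline on the muscle arrays, where the brightest probe of each was at least 2-fold higher, so their muscle differences are given as a description and support nothing further. Hsp90aa1 was represented by 3 probes and each of the others by 1, which gave 6 probes in all. Expression was measured on 6 one-colour arrays of 29922 probes, 1 for each of 2 treatments under 3 tissue labels. The groups were muscle, liver and adipose tissue of mice given MCSE, a water extract of the seeds of Momordica charantia (bitter melon), and the same tissues of mice given phosphate-buffered saline (PBS). All animals were ob/ob mice (B6.V-Lepob/J), which lack functional leptin and become obese and insulin resistant. In every group the mice had fasted for 4 h, were dosed orally 15 min before glucose was injected into the peritoneum at 1 g/kg, and gave tissue 4 h later. The labels gave neither age nor sex, and did not say whether several mice were pooled for an array. With 1 array per group, no difference between MCSE and PBS within a tissue label could be tested, and no fit across the labels was made.

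Heat shock chaperones keep other proteins folded. When unfolded proteins accumulate in the cytosol, heat shock factor 1 (HSF1) is freed from chaperones, binds heat shock elements in promoters and switches on a set of chaperone genes. Hspa1b encodes an inducible Hsp70, which holds and refolds client proteins in cycles driven by ATP. Dnajb1 encodes an Hsp40 whose J domain stimulates the ATPase of Hsp70 and loads clients onto it. Bag3 encodes a nucleotide exchange factor for Hsp70 that also hands damaged proteins to autophagy, and it is needed to maintain the Z-discs of working muscle. Hsp90aa1 encodes the inducible isoform of Hsp90, which stabilises kinases and steroid receptors. Constitutive relatives, such as Hspa8 and Hsp90ab1, are abundant without stress.

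A heat shock element is built from repeats of NGAAN in alternating orientation, so that a pair of repeats reads GAANNTTC or TTCNNGAA. These letters were sought in promoter windows from RefSeq (GRCm38.p6), which run from 250 bases before to 50 bases after a gene's start. Both patterns read the same on either strand. Of 32851 windows of all genes, 15.1% held at least 1 of them. Among the members, windows were at hand for Hspa1b, Bag3 and Dnajb1. The Hspa1b and Bag3 windows each held 1 match, and neither of the 2 Dnajb1 windows held any. A pair of further J-domain genes that were higher in MCSE muscle also had matches, 1 in Dnajb4 and 2 in Dnaja4, each in 1 of the gene's 2 windows. Hsph1, whose level hardly differed on the muscle arrays, had 3. The windows of Hspa1l and Bag1, which were not past 2-fold in muscle, held 0. The 15.1% is a share of windows, and a gene with 2 windows had more room for a match. The stretches around the matches are shown 5′ to 3′ with the matched letters in capitals, so that the matches of 4 genes past 2-fold in muscle can be set beside that of Hsph1, a relative near 0 there. Hspa1b is given for its whole upstream window (chr17:34959239-34959488, minus strand), Bag3 for the last bases of its window (chr7:128523603-128523632, plus strand), and Dnajb4 (chr3:152193846-152193905, minus strand), Dnaja4 (chr9:54699459-54699558, plus strand) and Hsph1 (chr5:149636337-149636396, minus strand) for the bases next to the start.
Hspa1b: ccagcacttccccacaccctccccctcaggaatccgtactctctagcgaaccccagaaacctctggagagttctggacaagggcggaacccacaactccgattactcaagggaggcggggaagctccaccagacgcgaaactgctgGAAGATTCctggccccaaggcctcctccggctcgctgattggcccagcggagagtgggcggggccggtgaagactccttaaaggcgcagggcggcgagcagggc
Bag3: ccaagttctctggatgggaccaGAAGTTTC
Dnajb4: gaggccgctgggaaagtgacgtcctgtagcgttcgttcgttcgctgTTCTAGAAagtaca
Dnaja4: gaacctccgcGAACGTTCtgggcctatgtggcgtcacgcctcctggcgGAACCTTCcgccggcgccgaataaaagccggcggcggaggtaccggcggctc
Hsph1: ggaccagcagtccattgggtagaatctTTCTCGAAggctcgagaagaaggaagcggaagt

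The Hspa1b match began 104 bases before the gene's start and the Bag3 match at base 43 after it. In Hsph1 the match shown began 33 bases before the start, and the other 2 lay downstream and overlapped as 1 pattern of 3 repeats (GAANNTTC followed by NNGAA, or TTCNNGAA followed by NNTTC), which 0.603% of all windows held. A CCAAT box, the letters CCAAT or ATTGG, stood 67 bases before the start of Hspa1b and was present in 37.4% of all windows. The Hspa1b window and that of its neighbouring copy Hspa1a were nearly the same, with 247 of the 250 upstream bases identical, and the Hspa1a window held the same match at the same place. A match is a description of letters and not evidence of binding, and a window without one says nothing about sites elsewhere.

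Values below are log2 of the authors' normalized intensity, and differences are log2 MCSE minus PBS, so 1 on this scale is 2-fold. The median of all probes was 8.95. Differences between 2 probes of the same gene gave an SD of 0.517 per probe on the muscle pair (1504 genes) and 0.611 on the liver pair (1653 genes), which holds probe error and transcript differences but no variation between mice. The labels were checked against tissue markers. Fast-fibre genes had a median level of 15.82 on the MCSE muscle array and 15.86 on the PBS muscle array, against 9.19 to 9.51 on the other 4. The muscle arrays also carried adipocyte genes, with medians of 12.89 with MCSE and 12.75 with PBS. The arrays labelled liver carried hepatocyte genes (medians 11.87 with MCSE and 11.82 with PBS) together with adipocyte genes (14.97 and 14.59) and kidney genes (13.19 and 11.91), so liver below names a label. The MCSE adipose array was nearly a copy of the MCSE liver array (Pearson correlation 0.982 over all probes), and the PBS adipose array was dim for genes that every tissue uses, with a median of 8.94 for proteasome subunits against 12.63 to 13.09 elsewhere. On the PBS adipose array adipocyte genes had a median of 9.05, against 12.75 to 14.97 elsewhere. Cardiac genes had a median of 12.20 on it, against 8.52 to 11.90 elsewhere. For these reasons the adipose arrays are given by level only, and adipose below names a label.

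Hspa1b was the member that stood out on the muscle arrays. Its level was 14.21 on the MCSE muscle array, against 9.19 on the PBS muscle array, a difference of 5.01 or 32.3-fold. In linear units these were intensities of 18911 with MCSE and 586 with PBS. The PBS level lay just above the median of all probes, and the MCSE level was above 98.7% of the probes on its array. Of 10711 measured genes (those whose brighter array reached the median of all probes), 4 had a higher difference. In bulk tissue, more cells of a type and more RNA per cell cannot be told apart.

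On the liver-labelled pair it was 11.28 with MCSE and 9.52 with PBS, a difference of 1.76 or 3.38-fold that ranked 214 of 11342 measured genes. The adipose arrays gave 11.39 with MCSE and 9.06 with PBS. The MCSE adipose and MCSE liver arrays, nearly alike over all probes, differed by 0.11 for Hspa1b. Hspa1a, the near-identical neighbour of Hspa1b on chromosome 17, has its own probe, which was dim on all 6 arrays, at 8.31 to 8.41 with MCSE and 7.87 to 8.01 with PBS. The probe sequences were not used here, so signal of Hspa1a transcripts on the Hspa1b probe cannot be told apart from that of Hspa1b.

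**Figure D1:**
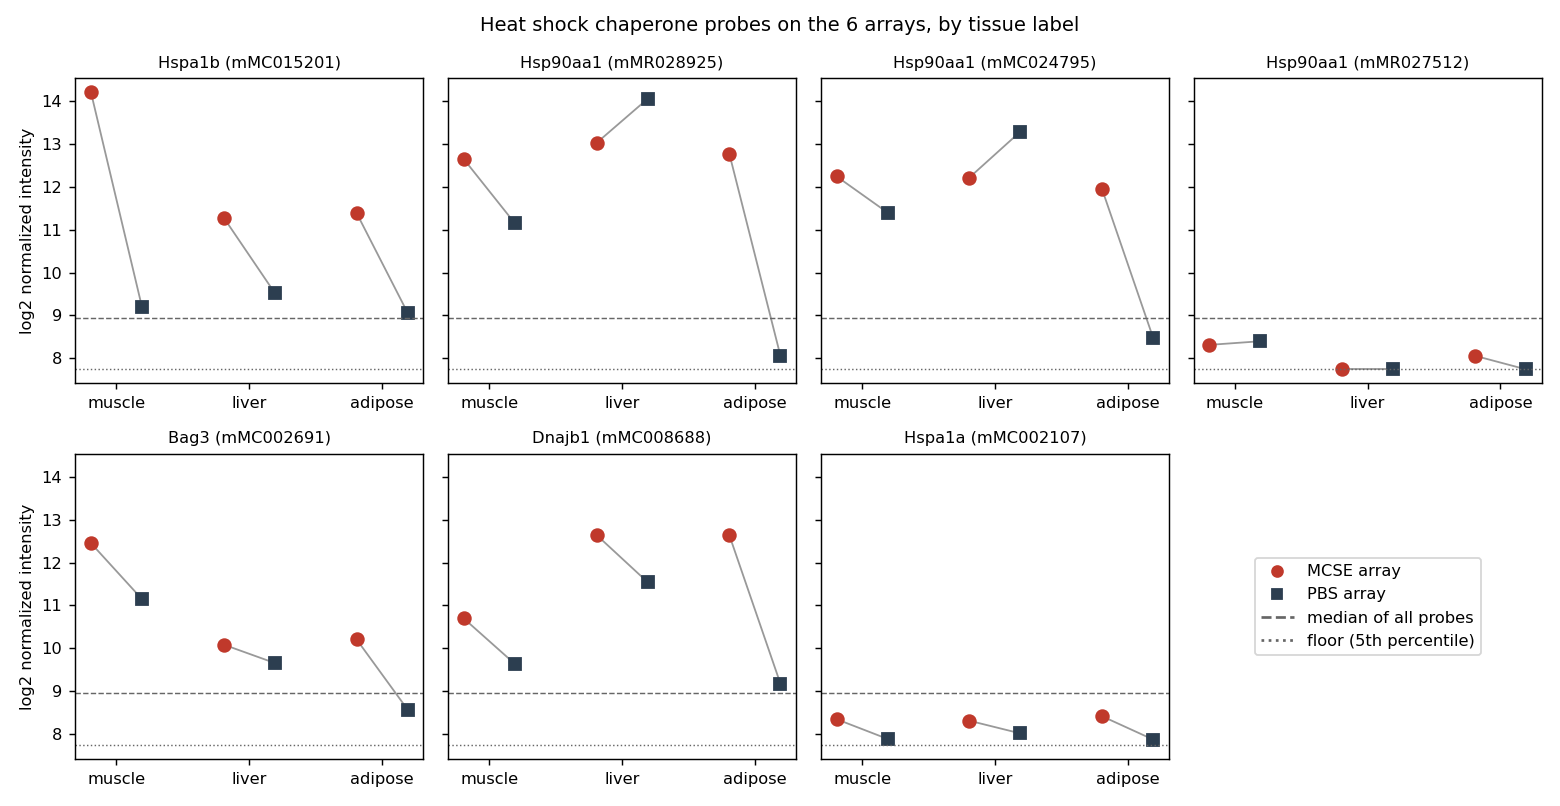
Log2 normalized intensity (vertical axis) of the 6 member probes and of the Hspa1a probe on each array, with MCSE arrays (circles) left of PBS arrays (squares) under each tissue label, 1 array per point. Hspa1b was at 14.21 on the MCSE muscle array and near the median of all probes (dashed line) on the 3 PBS arrays, while both bright Hsp90aa1 probes were highest on the PBS liver array.

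Dnajb1, the Hsp40 partner of Hsp70, differed by about the same amount on both pairs. It was 10.70 on the MCSE muscle array and 9.64 on the PBS muscle array, a difference of 1.06 (2.09-fold), just past 2-fold. The liver-labelled arrays gave 12.64 with MCSE and 11.54 with PBS, a difference of 1.10 (2.15-fold). The adipose arrays gave 12.64 with MCSE and 9.18 with PBS. With PBS the muscle array was 1.91 below the liver array, and with MCSE it was 1.95 below, so both muscle arrays lay under both liver arrays.

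Bag3 had the opposite order of tissues and was brightest on the muscle arrays. Its level was 12.45 with MCSE and 11.15 with PBS on the muscle pair, a difference of 1.31 (2.47-fold). Under the liver label it was 10.09 with MCSE and 9.66 with PBS, and this difference of 0.43 was smaller than the SD per probe. The adipose arrays gave 10.21 with MCSE and 8.57 with PBS. Muscle exceeded liver by 2.37 with MCSE and by 1.49 with PBS.

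Hsp90aa1 went in opposite directions on the 2 pairs. Its brightest probe was at 12.65 on the MCSE muscle array and 11.15 on the PBS muscle array, 1.497 higher (2.82-fold) with MCSE. On the liver-labelled pair the same probe was at 13.02 with MCSE and 14.05 with PBS, 1.03 lower (0.49-fold) with MCSE. The PBS liver array was the brightest of all 6, and the PBS adipose array, at 8.06, was the dimmest. A second bright probe had the same signs. It was at 12.25 on the MCSE muscle array and 11.40 on the PBS muscle array, a difference of 0.85 that stayed short of 2-fold, and at 12.22 with MCSE and 13.29 with PBS on the liver-labelled pair, a difference of -1.07. The third probe was under that median on every array, between 7.74, the floor, and 8.40, and could hardly show a difference. With the mean over the 3 probes the muscle difference was 0.75, and with differences centred on their median the liver-labelled one was -0.99, both short of 2-fold. Whether the directions differ beyond variation between mice was not tested.

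The members were spread over the tissue labels in different ways. On the PBS arrays Hsp90aa1 was 2.90 lower in muscle than on the liver-labelled array, Dnajb1 1.91 lower, Hspa1b 0.33 lower and Bag3 1.49 higher. On the MCSE arrays the Hspa1b gap was 2.92 in favour of muscle, while Hsp90aa1 in muscle was 0.38 below liver. These Hsp90aa1 values are of its brightest probe. On its second bright probe muscle was 1.89 below liver with PBS and 0.03 above it with MCSE. Across the 6 arrays the Pearson correlation between members was highest for Hsp90aa1 and Dnajb1 (0.78) and for Hspa1b and Bag3 (0.74). It was lowest for Bag3 and Dnajb1 (0.05). These values are a description over 6 points that share a common normalization. They also share the PBS adipose array, where the brightest probe of each member was lowest.

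Set against all genes, 4 of the 4 members were at least 2-fold higher on the muscle pair, where 3.90% of 10711 measured genes were 2-fold higher and 1.88% 2-fold lower, a count fixed by the choice of members. On the liver-labelled pair, where 8.27% of 11342 measured genes were 2-fold higher and 6.01% 2-fold lower, Hspa1b and Dnajb1 were higher, Hsp90aa1 was lower and Bag3 was neither. In muscle, Hsp90aa1 ranked 152 from the top, Bag3 222 and Dnajb1 382 of 10711. The Hspa1b difference was 9.69 times the SD per probe, and those of Hsp90aa1, Bag3 and Dnajb1 were 2.89, 2.52 and 2.05 times it. These muscle ranks and ratios come from the differences by which the members were chosen, so they describe size and support nothing further. Under the liver label the ratios were 2.88 for Hspa1b, 1.80 for Dnajb1, 0.70 for Bag3 and -1.68 for Hsp90aa1.

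**Figure D2:**
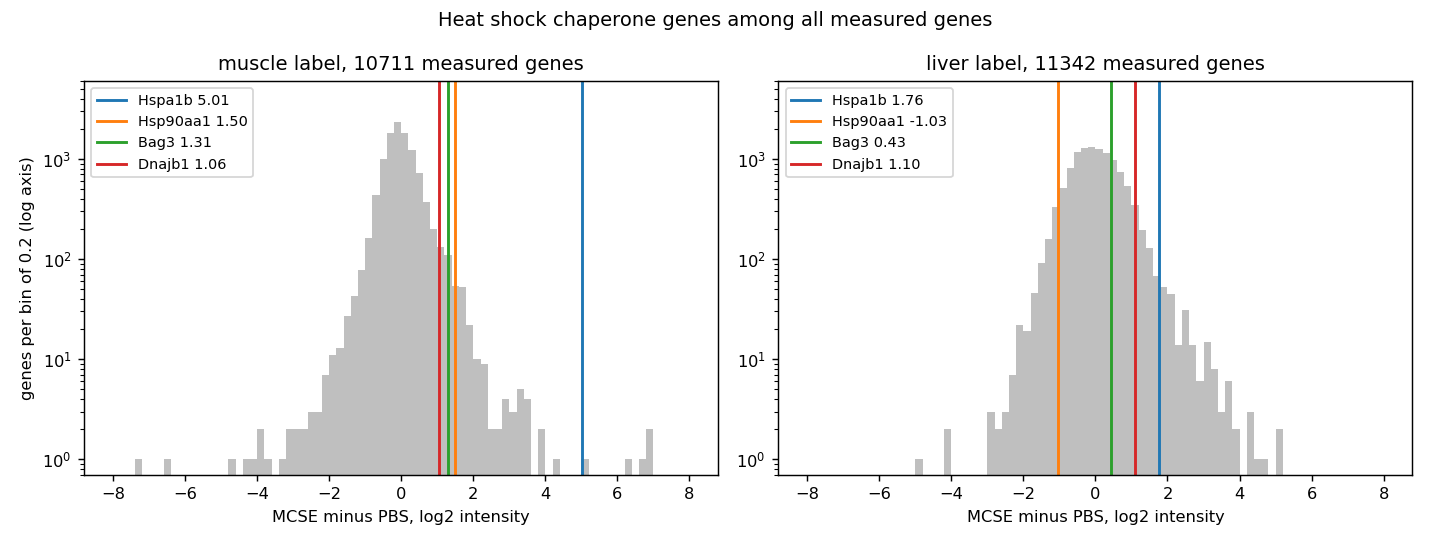
Number of measured genes (vertical log axis) by log2 difference MCSE minus PBS (horizontal axis, bins of 0.2) on the muscle pair, left, and the liver-labelled pair, right, with the brightest probe of each member as a coloured line. Hspa1b lay at 5.01, far to the right of most muscle genes, and Hsp90aa1 lay at -1.03 on the liver-labelled pair.

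Around the members, 1 other measured gene of the cytosolic heat shock response was past 2-fold in muscle. Of the 24 symbols listed as the cytosolic heat shock response, 19 were found and 16 measured in muscle. With MCSE, 5 of these 16 were 2-fold higher and 0 lower, where 3.90% and 1.88% of all measured genes were. The median difference of the 16 was 0.19, against -0.05 over all measured genes. The 4 members, picked for being higher, are among these 5. Without them, 1 of 12 was higher and the median was 0.04. That gene was Dnajb4, a J-domain partner of Hsp70, at 12.29 with MCSE and 10.05 with PBS, a difference of 2.24. Several relatives lay near 0. Hspa8, the constitutive Hsc70, was at 15.53 with MCSE and 15.57 with PBS, and Hsph1, a heat-inducible Hsp110 that exchanges nucleotide on Hsp70, at 10.95 and 10.98. Hsp90ab1, the constitutive Hsp90, differed by -0.21, -0.06 and -0.18 on its 3 probes. Hspb1, Hspd1 and Hspe1 were not found under these symbols, and Dnaja1 was below the filter.

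Few other chaperone genes were past 2-fold in muscle. The 10 lists held 108 genes found on the array, of which 93 were measured. Of these, 6 were 2-fold higher and 0 were lower, and beyond the 4 members these were Dnajb4 and Dnaja4, that is 2 of 89 or 2.25%, against 3.90% of all measured genes. Dnaja4, another J-domain co-chaperone, was at 11.53 with MCSE and 10.40 with PBS, a difference of 1.13. The highest difference short of 2-fold was 0.85, that of Hspb7, a small heat shock protein of heart and muscle. The lowest among the brightest probes of the members was the 1.06 of Dnajb1, an order fixed by choosing members at 2-fold. The second bright probe of Hsp90aa1 was at 0.85 as well.

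By family, and without the members, the J-domain list had 2 of 17 measured genes 2-fold higher, Dnajb4 and Dnaja4, with a median of 0.14, where 3.90% of all measured genes were higher. The HSP70 and HSP110 list had 0 of 11 (median -0.04), the HSP90 list 0 of 12 (median -0.12) and the list of BAG proteins and Bag3 partners 0 of 10 (median 0.06). Hspb8, the small heat shock protein that works with Bag3, was at -0.77. The 5 measured small heat shock proteins had 0 past 2-fold and a median of 0.64. Hspb2 lay at 0.75 and Hspb3 at 0.64, and Cryab, alphaB-crystallin, at 0.21.

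Chaperones of other compartments had no call in muscle, which in lists this short is close to the 3.90% higher and 1.88% lower of all measured genes. Of 17 measured genes of the endoplasmic reticulum and the unfolded protein response, 0 were past 2-fold in either direction, with differences from -0.54 to 0.32 and a median of -0.09. Hspa5, the Hsp70 of the endoplasmic reticulum (BiP), was at -0.19 and Ddit3, a transcription factor of the unfolded protein response, at 0.14. The 8 mitochondrial genes (median -0.09) and the 11 genes of the CCT chaperonin and prefoldin (median 0.02) had 0 past 2-fold as well. Among the heat shock factors, Hsf1 was at -0.29 and Hsf2 at 0.68.

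**Figure D3:**
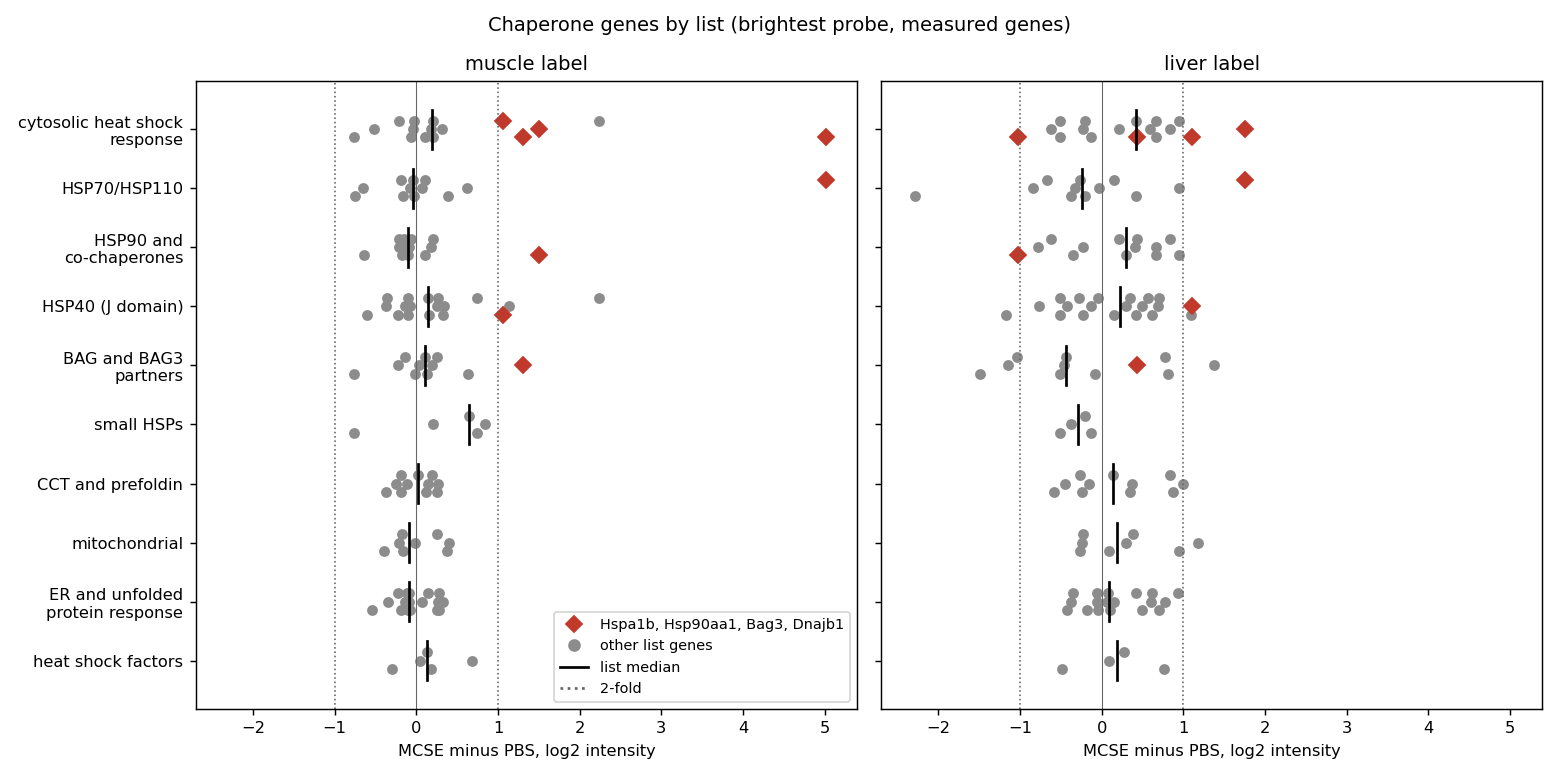
Log2 difference MCSE minus PBS (horizontal axis) of each measured gene of 10 chaperone lists on the muscle pair, left, and the liver-labelled pair, right, with 1 point per gene, diamonds for the 4 members, a black bar at the list median and dotted lines at 2-fold. On the muscle pair the points past 2-fold are the 4 members, Dnajb4 and Dnaja4, whereas on the liver-labelled pair 6 genes lay past 2-fold on each side.

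On the liver-labelled pair the calls fell on both sides. Of 95 measured chaperone genes, 6 were past 2-fold upward with MCSE and 6 downward, and the median was 0.10, against -0.02 over all measured genes. Without the members, 4 of 91 (4.40%) were higher and 5 (5.49%) were lower, where 8.27% and 6.01% of all measured genes were. The higher ones were Bag6, at 1.38, Afg3l2, a mitochondrial protease, at 1.18, Dnajc11 at 1.10 and Cct4, a chaperonin subunit, at 1.00. The lower ones were Hspa1l, an Hsp70 mainly of the testis, at -2.28, St13, which binds Hsp70, at -1.49, Dnajb14 at -1.17, Bag4 at -1.15 and Bag1 at -1.03. The Hspa1l probe was bright for such a gene, at 10.56 with MCSE and 12.84 with PBS. On the muscle pair it was at 12.41 and 13.06, and what this probe reads was not checked. Hspa8 was 0.95 higher, at 15.37 with MCSE and 14.42 with PBS, short of 2-fold. The cytosolic heat shock response list had a median of 0.42, with 2 of 17 measured genes higher and 1 lower, all 3 of them members.

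Some of these calls rested on 1 probe. A dimmer second probe of Cct4 gave -0.16 and that of Dnajc11 -0.33, both below the median of all probes. Bag4 had -1.18 on its second probe and Bag6 1.32 on its second, so those agreed in sign on the liver-labelled pair. In muscle, however, the second probe of Bag6 was at -1.001 and the brightest at 0.19. Hspa1b, Bag3, Dnajb1, Dnajb4, Dnaja4, Hspa1l, St13, Bag1, Afg3l2 and Dnajb14 had 1 probe each and could not be checked in this way.

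**Figure D4:**
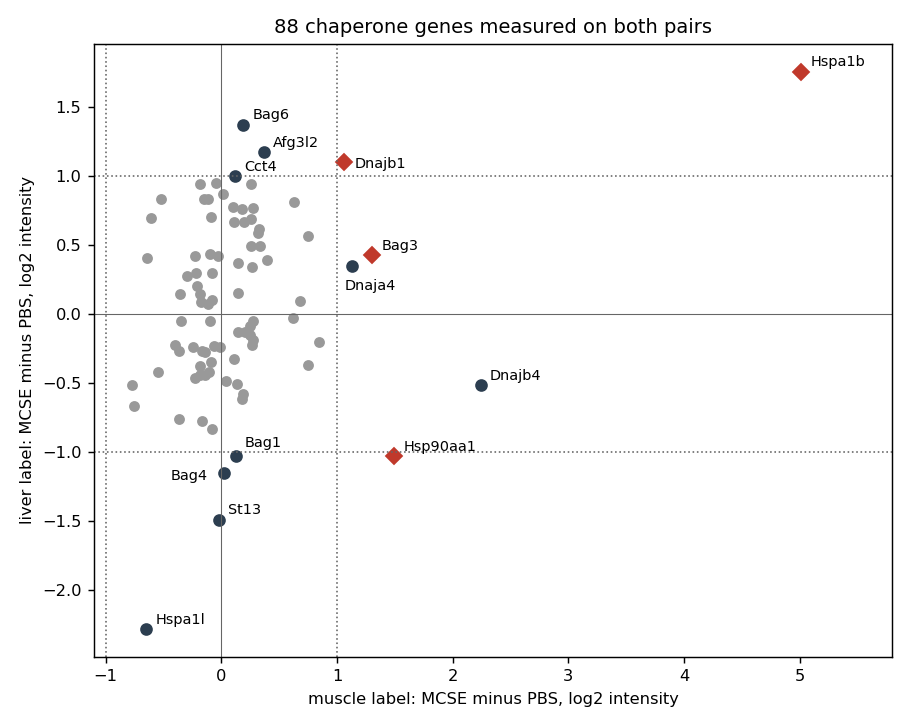
Log2 difference MCSE minus PBS on the muscle pair (horizontal axis) and on the liver-labelled pair (vertical axis) for 88 chaperone genes measured on both, with 1 point per gene, diamonds for members and dotted lines at 2-fold. Hspa1b and Dnajb1 were 2-fold higher on both pairs, and Hsp90aa1 lay past 2-fold in opposite directions.

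Of the 88 chaperone genes measured on both pairs, 2 were 2-fold higher on both, Hspa1b and Dnajb1, both members picked for their muscle difference. Of all 9578 genes measured on both pairs, 1.05% were. Dnajb4, the highest chaperone after Hspa1b in muscle, was at -0.52 on the liver-labelled pair, and Dnaja4 at 0.35.

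Some markers of other cells differed between the same arrays. Of all measured genes, 3.90% were 2-fold higher and 1.88% 2-fold lower on the muscle pair. On the liver-labelled pair these shares were 8.27% and 6.01%. On the muscle pair 6 of 7 slow-fibre genes were 2-fold higher with MCSE, with an intensity summed over the list of 167106 with MCSE and 44988 with PBS. Of 9 measured kidney genes 2 were higher, with list sums of 14253 with MCSE and 5866 with PBS. These sums cover all 10 kidney genes, and their rise rests largely on Kap, at 12.81 with MCSE and 9.61 with PBS. The median difference of the measured kidney genes was 0.69. Of 10 macrophage genes 0 were 2-fold higher, but 7 lay above 0 and the median difference was 0.57. Their sums were 17278 with MCSE and 13351 with PBS. Of 4 measured neutrophil genes 1 was higher, S100a9 at 1.48, with a list median of 0.72 and sums of 10853 with MCSE and 7092 with PBS. Under the liver label 5 of 10 kidney genes were higher, with sums of 183145 with MCSE and 116136 with PBS, and 5 of 6 measured cardiac genes were lower, with sums of 7432 and 17495. No marker was at 0, since the lowest intensity in the table was 118.9. The proteasome subunits, a check of RNA quality, had 0 of 24 measured genes higher and 2 lower under the liver label, with a median of -0.32 and sums of 172863 with MCSE and 230825 with PBS. The part of these differences in the values of the chaperones was not tested.

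The genes most like each member were named by Pearson correlation of log2 levels over the 6 arrays, among 11000 genes with a mean at or above the median of all probes. With so few points high values are common, and they share the common normalization and the PBS adipose array, where each member was lowest. For Hspa1b these were Evl (0.97), 1110059E24Rik (0.97) and 1700106N22Rik (0.96), all much flatter than Hspa1b. Evl was at 10.65 on the MCSE muscle array and 8.69 on the PBS muscle array. For Bag3 they were Mustn1, a nuclear protein of muscle and bone (0.995), Zfp52 (0.99) and Ide, the insulin-degrading enzyme (0.99). Mustn1 was at 14.17 with MCSE and 12.92 with PBS on the muscle pair and at 11.29 and 10.50 on the liver-labelled pair. For Hsp90aa1 they were Crcp, Smad1 and Rala (0.998, 0.995 and 0.995), and for Dnajb1 Bpnt1, Mrc2 and Ankmy2 (0.999, 0.997 and 0.996). None of these 12 genes was a chaperone of the lists, which held 108 of the 16675 named genes. With so small a share, this is no result about chaperones.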

How the data were processed

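Amplified RNA carrying Cy5 was hybridised to one-colour arrays, per the labels' protocols. The authors deposited a table of normalized intensity values on a linear scale. The submitters' processing notes name limma, and the background correction, normalization and genome build are not given in the sources used here. Sorted values of the 6 arrays differed from their median by at most 0.038 (log2), so they had been brought to 1 distribution, which can hide a general shift. Probes were named through the platform annotation (21020 of 29922 had 1 symbol). Intensities under the 5th percentile (214.2) were raised to it before log2. A gene was represented by its brightest probe, each member also by every probe, and counted as measured where its brighter array of the pair reached the all-probe median. With 1 array per group, higher and lower mean past 2-fold and no test was made. Precision is limited by the number of arrays.

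The members and lists were chosen with earlier results of these data known. Named genes were the members, at most 6 list genes past 2-fold per list and pair, 10 relatives whatever their value, and the 3 closest patterns per member. Hspb7, Hspb2, Hspb3, Hspb8, Cryab, Hspa5 and Ddit3 were named after their values were seen. The SD per probe and the differences were tested on simulated data. Alternatives were quantile normalization, centring, a lowess trend, no floor, 32 added before log2, probe means, other filters and other thresholds. Python 3.11.15, numpy 2.4.6, pandas 2.3.3, statsmodels 0.14.6 and matplotlib 3.10.9 were used.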

Additional observations from a re-analysis of the deposited data

Results flagged for a closer look

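Among the probes of the named genes and the brightest probes of the listed chaperone genes, those of 3 genes differed in opposite directions on the 2 tissue labels, each by more than the SD per probe of that pair. With 1 pair of arrays per label, the difference between labels was not tested. Hsp90aa1 was at 1.497 on the muscle pair and -1.03 on the liver-labelled pair on its brightest probe, and at 0.85 and -1.07 on its second probe. Dnajb12, a J-domain protein, was at -0.60 on the muscle pair and 0.70 on the liver-labelled pair on its brightest probe. It has 2 probes, and the dimmer was not examined. The second probe of Bag6 was at -1.001 on the muscle pair and 1.32 on the liver-labelled pair.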

How the results depend on the processing

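The 4 members were recomputed for both pairs under 6 alternatives. Of 48 values, 47 moved by less than the SD per probe and 0 changed sign. The exception was Hsp90aa1 in muscle, which was 0.75 with the mean over its probes, short of 2-fold, because that mean takes in the dimmest probe. Many of the 48 values could hardly move, so this tally is no measure of stability. The arrays already shared 1 distribution before quantile normalization, and the brightest member probes lay above the floor. Probe means leave Hspa1b, Bag3 and Dnajb1 unchanged, since each has 1 probe. Hspa1b ranged from 4.94 to 5.05 in muscle and from 1.71 to 1.81 on the liver-labelled pair. Hsp90aa1 on the liver-labelled pair was between -1.03 and -0.70 and was short of 2-fold with centring (-0.99), the lowess trend (-0.98) or probe means (-0.70). With a 1.5-fold threshold 1016 of 10711 measured muscle genes were higher and 847 lower, and with 3-fold 124 and 52. Of 11342 genes measured on the liver-labelled pair, these counts were 2275 and 2093 at 1.5-fold and 281 and 108 at 3-fold. Of 93 measured chaperone genes of all lists, 13 were higher and 5 lower in muscle at 1.5-fold, and 2 and 0 at 3-fold. The 4 members, chosen at 2-fold in muscle, are among these 13, and Hspa1b is among these 2. On the liver-labelled pair 26 of 95 were higher and 11 lower at 1.5-fold, and 1 and 1 at 3-fold. The members were not taken out at these thresholds, so these counts say nothing about the other chaperones. No array could be left out, since each pair held 1 MCSE and 1 PBS array. Within a tissue label no test was possible because each group held 1 array. The MCSE and PBS arrays could be paired by tissue label across the 3 labels. No such paired fit was made, since the MCSE adipose array nearly copies the MCSE liver array.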
